A study of Mus musculus with 48 samples.

Results

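The step examined here is the last one of an antibody dose series in mouse T cells, from 1000 to 10000 ng/ml of 2C11, an antibody to CD3 that stimulates through the T cell receptor (TCR). Its members are fixed by the labels alone: the 6 libraries at 10000 ng/ml and the 4 at 1000 ng/ml, 10 of the 22 CD4 libraries and of 48 libraries in the whole series. All came from purified CD4+ T cells of BALB/cCrSlc mice, without a genetic change named in the labels. At each dose some cultures had the inhibitory receptor PD-1 engaged and others did not; they are called engaged and unengaged below. The unengaged groups held 2 libraries at 1000 and 3 at 10000 ng/ml, and the engaged groups held the same numbers. How PD-1 was engaged, how long the cells were stimulated and whether libraries came from separate mice or cultures are not given in the sources used here. All p-values therefore measure the spread between these libraries, which may be technical. The comparison asks which genes were still higher, and which were lower again, when a stimulus that had already moved the transcriptome was raised another 10-fold.

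RNA 5′ ends were counted by CAGE (cap analysis of gene expression), and a level is the number of tags scaled to the library's total (RPM), summed per gene symbol over the deposited start clusters. The 10 libraries held 5.97 to 22.8 M tags. All 12 T cell identity markers were in the table. Their summed level was 4122 and 4134 RPM at 1000 and 3813 to 3853 RPM at 10000 ng/ml unengaged, lower without overlap, and 3984 and 4023 RPM and then 3353 to 3988 RPM engaged. Of 20 markers of B cells and antigen-presenting cells 16 were in the table, Ebf1, Blk, Ighd and Cr2 not among them. Their sum read 565 to 726 RPM at 1000 and 597 to 956 RPM at 10000 ng/ml unengaged, and 888 to 1112 and 896 to 1273 RPM engaged. The 2 myeloid markers in the table (of 16) summed to 148 to 169 RPM unengaged and 166 to 186 RPM engaged. The 5 CD8, NK and cytotoxic markers in the table (of 13) were Cd8b1, Klrk1, Nkg7, Gzma and Gzmb, without Cd8a. They summed to 259 to 284 RPM unengaged and 155 to 184 RPM engaged, apart by state at both doses. At dose 0 this sum was lower, 139 and 110 RPM unengaged and 121 and 90.1 RPM engaged. None of 12 erythroid and platelet markers was listed. The part of other cell types in the results was not tested. In such bulk RNA fewer cells of a type and less RNA per cell cannot be told apart.

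As background, a TCR bound by antigen or antibody starts kinase cascades and calcium entry, which activate the factors NFAT, AP-1 and NF-kB. These switch on immediate early genes such as Egr2 and Nr4a1, then cytokine and chemokine genes, while genes of the resting naive state, such as Tcf7 and Klf2, are shut down. PD-1 recruits phosphatases to the receptor complex and dampens this signalling. A dose response can level off gene by gene, some genes reaching their plateau at a weak stimulus and others only at a strong one.

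To place the step among regulatory sequences, the promoters of 3 genes are shown, each as the 200 bases before its RefSeq start (GRCm38.p6). They belong to the higher gene and the lower gene with the lowest p in the step, Ccl1 and Dusp10, and to Il2, the classic target of NFAT. Both strands were searched for GGAAA (the NFAT core), TGANTCA (AP-1), TGACGTCA (the cyclic AMP response element) and TATAAA (the TATA box), and matches are in capitals.
Ccl1: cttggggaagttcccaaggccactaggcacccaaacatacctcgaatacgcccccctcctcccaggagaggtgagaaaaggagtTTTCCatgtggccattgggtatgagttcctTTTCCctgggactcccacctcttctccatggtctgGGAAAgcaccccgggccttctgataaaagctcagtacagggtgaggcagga
Il2: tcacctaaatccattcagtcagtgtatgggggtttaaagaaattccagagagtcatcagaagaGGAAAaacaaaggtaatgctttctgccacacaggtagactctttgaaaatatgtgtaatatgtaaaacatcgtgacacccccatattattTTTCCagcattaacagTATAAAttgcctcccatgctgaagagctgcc
Dusp10: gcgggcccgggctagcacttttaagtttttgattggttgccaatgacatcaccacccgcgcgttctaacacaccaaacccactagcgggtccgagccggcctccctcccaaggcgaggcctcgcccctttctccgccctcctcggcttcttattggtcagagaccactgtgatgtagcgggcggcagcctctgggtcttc
The Ccl1 window lies at chr11:82179813-82180012 on the minus strand and holds the NFAT core 3 times, beginning 116, 86 and 51 bases before the start. The Il2 window (chr3:37125955-37126154, minus strand) holds it 2 times, 137 and 47 bases before the start, and a TATA box 31 bases before it. In the Dusp10 window (chr1:184034181-184034380, plus strand) none of the 4 motifs occurs. The NFAT core is short and is found in 47.6% of the 32851 RefSeq promoter windows of this length, the TATA box in 9.96%, the AP-1 motif in 5.48% and the cyclic AMP response element in 1.47%.

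No gene passed the test in the step from 1000 to 10000 ng/ml. With limma on log2(RPM + 1) and engagement as a block, 0 of 10165 genes tested (0%) had an adjusted p under 0.05. At an unadjusted p under 0.05 there were 794 (7.81%), 176 of them higher (1.73%) and 618 lower (6.08%). edgeR with TMM factors on the recovered tags called 0, and DESeq2 called 23 higher and 20 lower. The other steps of the same dose series, each fitted on its own 8 libraries, called 1 gene (0.00986%) from 0 to 10, 3023 (29.7%) from 10 to 100 ng/ml and 5066 (49.6%) from 100 to 1000 ng/ml. Lower were 883 of the 3023 called genes (8.67% of all genes tested) and 2737 of the 5066 (26.8% of all genes tested). The last step shares its 1000 ng/ml libraries with the saturation step.

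The precision of the step, taken over both states, was enough to bound most genes. The 95% confidence interval of the difference lay inside a 2-fold change for 10059 genes (99%) and inside 1.41-fold for 8168 (80.4%), with a median standard error (SE) of 0.11 on the log2 scale. The median size of the difference was 0.087, against 0.30 from 100 to 1000 ng/ml, and 13 genes differed by 1 or more, against 535. Over all genes tested the median difference was -0.040. This step averages 2 states that moved in opposite directions for many genes, as given below. With 1 mean per group the median size was 0.173 in unengaged and 0.141 in engaged cells. In that fit 99 and 82 genes differed by 1 or more, and 52.4% and 58.9% had intervals inside 1.41-fold.

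A second way to read the step uses no threshold on p: in each state, whether all 3 libraries at 10000 ng/ml lay above, or all below, both libraries at 1000. In both states at once 76 genes (0.748%) lay above and 284 (2.79%) below without overlap. In unengaged cells taken alone the counts were 777 (7.64%) above and 4108 (40.4%) below, and in engaged cells 2346 (23.1%) above and 1086 (10.7%) below. Lower unengaged and higher engaged were 1334 genes (13.1%), and the reverse held for 234 (2.30%). Since the rule for named genes needs a called gene, the genes named next were picked after their values were seen: the 12 with the lowest p in each direction among genes of at least the median level that did not overlap in either state. The 12 higher ones were Ccl1, Csf2, Syp, Rgs16, Lair1, Crabp2, Ptger2, Spry1, Lmna, Ccl3, Psmg4 and Nop16. The 12 lower ones were Dusp10, Eno3, Cnn2, Ikbke, Tgtp2, Tcf7, Cotl1, Add3, Il2rb, Ctsw, Mob3a and Ifnar1. Their adjusted p in the step ran from 0.142 to 0.432 and from 0.118 to 0.328. That these genes did not overlap was fixed by this choice and is not a further result.

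Among the secreted products, Ccl1 and Csf2 stood first. Ccl1, a chemokine that binds the receptor CCR8 (mm9 chromosome 11, 81993313 to 81993316, minus strand, as deposited), read 99.3 and 102 RPM at 1000 and 138, 140.0 and 162 RPM at 10000 ng/ml in unengaged cells. Engaged cells read 39.0 and 38.8 RPM and then 50.0, 49.7 and 58.3 RPM. The 10000 ng/ml libraries were the higher ones in both states, 1.46-fold and 1.36-fold by group means, a log2 difference of 0.48 (SE 0.071, limma adjusted p = 0.142). Csf2, which encodes the growth factor GM-CSF (chromosome 11, 54063145, minus strand), read 28.7 and 38.5 RPM and then 54.3, 65.4 and 50.8 RPM unengaged. Engaged it read 8.45 and 10.9 RPM and then 18.0, 16.3 and 14.2 RPM. As the choice of these genes required, the groups did not overlap. The folds were 1.69 and 1.67 (log2 difference 0.72, SE 0.12, limma adjusted p = 0.189). In both genes the unengaged level at 10000 ng/ml also stayed above the engaged one at the same dose.

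Other cytokine genes leaned the same way. Il3, a growth factor gene next to Csf2 that lies under the median level, read 3.96 and 3.29 RPM at 1000 and 8.36, 8.68 and 8.41 RPM at 10000 ng/ml unengaged, which are 43 and 53 tags against 56 to 198. Engaged it read 0.574 and 0.589 RPM and then 1.05, 0.739 and 1.00 RPM, only 4 to 11 tags a library. Il4, the type 2 helper cytokine, read 263 and 376 RPM and then 404, 493 and 399 RPM unengaged, and 104 and 139.6 RPM and then 167, 213 and 142 RPM engaged. Its groups did not overlap either (log2 difference 0.48, SE 0.14, limma adjusted p = 0.432). Tnf, the inflammatory cytokine, differed less, with a level of 278 ± 4.5 RPM at 1000 (mean ± SD, n = 2) and 314 ± 11.7 RPM at 10000 ng/ml (n = 3) unengaged, and from 223 ± 3.6 to 253 ± 26.5 RPM engaged. The chemokine gene Ccl3 read 42.6 and 44.8 RPM and then 55.7, 61.1 and 56.3 RPM unengaged and 9.60 and 11.6 RPM and then 21.5, 19.95 and 12.1 RPM engaged. Another chemokine gene, Ccl4, was higher without overlap in unengaged cells alone, from 86.0 ± 10.3 to 129 ± 14.4 RPM. Engaged it stood at 49.6 ± 0.45 and 54.2 ± 6.4 RPM, and the difference between states was not called (adjusted p = 0.0874, limma). In the opposite direction Ltb, the lymphotoxin beta gene that resting lymphocytes express strongly, read 703 and 700.1 RPM and then 610.5, 643 and 615 RPM unengaged and 739.9 and 704 RPM and then 658, 573 and 568 RPM engaged, lower at 10000 ng/ml without overlap in both states.

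Of the 17 cytokine genes tested, none was called, 7 were higher and 1 lower at an unadjusted p under 0.05, beside 1.73% and 6.08% of all genes, and the list's median difference was 0.21, beside -0.040 for all genes. Of the 6 chemokine genes none was called and 3 were higher at that p, beside the same 1.73%, with a median of 0.23. These lists were chosen with earlier results of these data known.

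The remaining higher genes act at the membrane, in signalling and in ribosome and proteasome assembly. Crabp2, a cellular retinoic acid binding protein, read 312 and 332 RPM and then 397, 425 and 357 RPM unengaged, and 154 and 194 RPM and then 259.6, 267 and 210.4 RPM engaged (log2 difference 0.39, SE 0.094). Rgs16, which speeds the shut-off of G proteins, went from 308 ± 12.5 to 364 ± 8.4 RPM unengaged. Engaged it went from 193 ± 6 to 236 ± 14.1 RPM, a narrow difference. Ptger2, a receptor for prostaglandin E2, differed by 0.33 and Lair1, an inhibitory collagen receptor, by 0.42 on the log2 scale. Lmna (A-type lamin) differed by 0.40, the vesicle membrane protein gene Syp by 0.47, the proteasome assembly factor Psmg4 by 0.19 and the ribosome biogenesis factor Nop16 by 0.21. Havcr2 encodes the inhibitory receptor TIM-3 and lies under the median level. It read 4.94 and 5.29 RPM and then 7.93, 6.45 and 9.16 RPM unengaged. Engaged it read 1.80 and 2.21 RPM and then 3.15, 3.38 and 2.85 RPM. The 8 inhibitory receptors and ligands tested had a median difference of -0.011, beside -0.040 for all genes. At an unadjusted p under 0.05, 1 of them was higher and 1 lower, beside 1.73% and 6.08% of all genes.

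Spry1, a feedback inhibitor of the RAS and MAP kinase pathway, was the only gene of the 12 higher ones with a called difference between states. Unengaged libraries read 169 and 177 RPM at 1000 and 179, 182 and 196 RPM at 10000 ng/ml, and engaged ones 85.0 and 78.0 RPM and then 139.5, 141 and 142 RPM. Unengaged cells were thus near their top level at 1000 ng/ml, while engaged cells rose 1.73-fold (log2 difference 0.78, adjusted p = 0.00125 with limma in a fit with 1 mean per group, and 0.0308 with edgeR). The difference between states was 0.68 (limma adjusted p = 0.00145, and 0.0683 with a trend of transcript length and GC content removed).

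**Figure D1:**
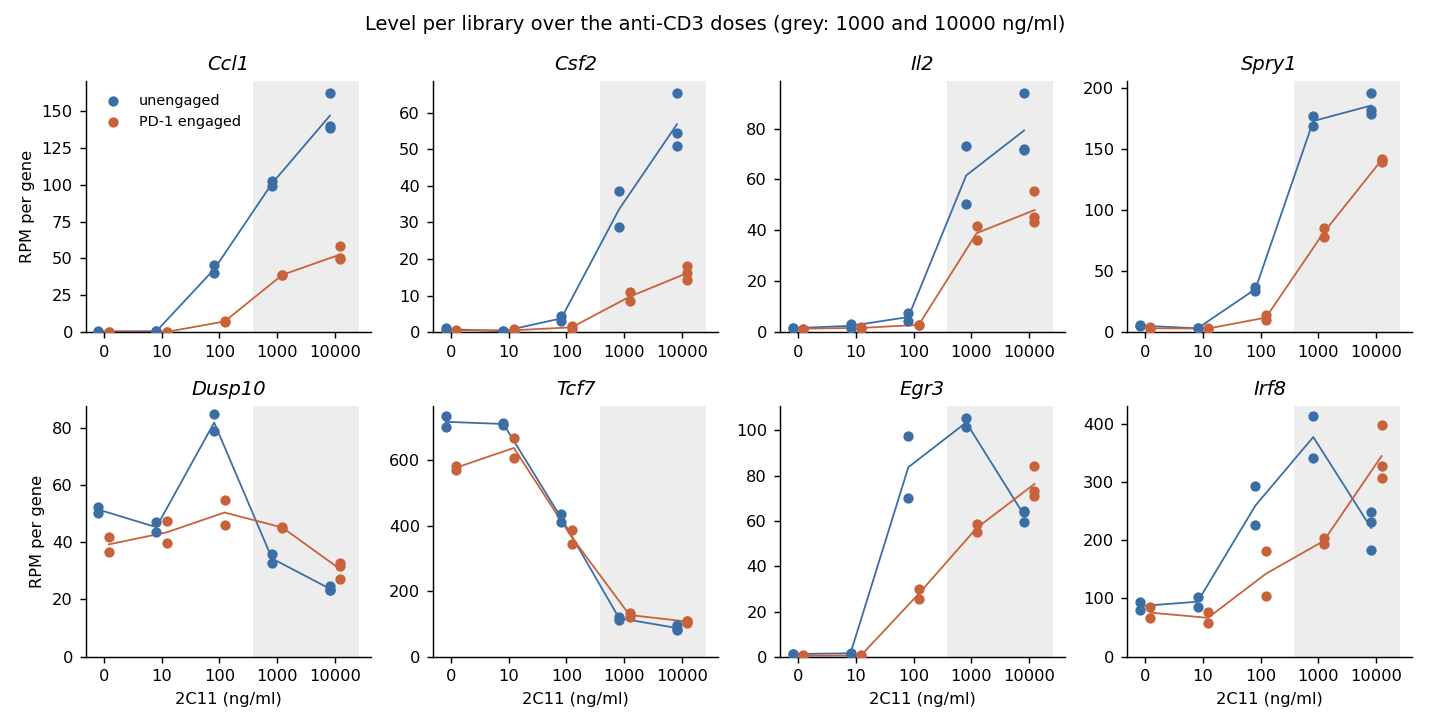
RPM per gene (linear axis from 0) over the 5 doses of 2C11 for 8 genes, with 1 point per library, lines through group means, blue unengaged and orange engaged. In the grey columns Ccl1 and Csf2 lie higher at 10000 than at 1000 ng/ml in both states, Spry1 mainly in engaged cells, Dusp10 and Tcf7 lie lower, and Egr3 and Irf8 lie lower in unengaged and higher in engaged cells.

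Among the lower genes Dusp10 came first. It encodes a phosphatase that inactivates the stress kinases JNK and p38 (chromosome 1, 185858337 to 185858343, plus strand). It read 35.7 and 32.9 RPM at 1000 and 23.4, 24.6 and 23.3 RPM at 10000 ng/ml unengaged, and 45.1 and 45.1 RPM and then 32.7, 27.1 and 31.8 RPM engaged. The folds were 0.692 and 0.677, nearly alike in the 2 states, for a log2 difference of -0.53 (SE 0.072, limma adjusted p = 0.118). Over the dose series the unengaged mean of Dusp10 was highest at 100 ng/ml: it was 51.4 ± 1.5 RPM at dose 0 and 81.8 ± 4 RPM at 100 ng/ml.

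Eno3, the beta form of the glycolytic enzyme enolase, also had its unengaged peak at 100 ng/ml, at 102 ± 17.3 RPM. It then read 67.7 and 63.2 RPM at 1000 and 51.0, 55.1 and 45.6 RPM at 10000 ng/ml, and engaged 77.5 and 73.5 RPM and then 61.3, 59.2 and 59.6 RPM. Its log2 difference in the step was -0.35 (SE 0.065, limma adjusted p = 0.271).

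Several other lower genes belong to the resting state or to interferon and cytokine receptor signalling. Tcf7, the naive T cell transcription factor TCF-1, had a mean of 718 ± 23.6 RPM at dose 0 and 424 ± 16.1 RPM at 100 ng/ml unengaged. It read 123 and 113 RPM at 1000 and 82.8, 85.0 and 95.8 RPM at 10000 ng/ml unengaged, and 134 and 121 RPM and then 108, 104 and 110.4 RPM engaged (log2 difference -0.33, SE 0.068). The engaged step alone was not called (limma adjusted p = 0.14). The unengaged step was called with limma (adjusted p = 0.0132), but not with edgeR (0.113) or DESeq2 (0.0995). The largest Tcf7 start cluster overlapped between doses in engaged cells, at 69.6 and 67.05 RPM and then 65.1, 70.8 and 67.2 RPM. Another start cluster was lower there, from 51.2 and 39.1 RPM to 32.6, 23.4 and 31.2 RPM. Il2rb, the beta chain of the receptors for IL-2 and IL-15, read 438 and 424 RPM and then 303, 321 and 326 RPM unengaged, and 374 and 385 RPM and then 367, 303 and 279 RPM engaged. Ifnar1, a chain of the type I interferon receptor, differed by -0.33, the interferon-induced GTPase gene Tgtp2 by -0.39, and Ikbke, a kinase of interferon induction, by -0.43 on the log2 scale. The actin-binding genes Cnn2 and Cotl1 differed by -0.34 and -0.29, the membrane skeleton gene Add3 by -0.36, the protease gene Ctsw (cathepsin W) by -0.30 and Mob3a by -0.38.

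The list of 22 resting and naive T cell genes had the lowest median of the 20 pathway lists, -0.21, with none called and 9 lower and 0 higher at an unadjusted p under 0.05, where 6.08% of all genes were lower. The sum of T cell identity markers was also lower at 10000 ng/ml in unengaged cells, as given above. The list's median was -0.25 in unengaged and -0.15 in engaged cells, beside -0.14 and 0.041 for all genes. Klf2, a factor that keeps T cells quiescent and recirculating, read 17.5 and 16.7 RPM at 1000 and 16.4, 10.3 and 15.5 RPM at 10000 ng/ml unengaged, and 29.5 and 22.3 RPM and then 19.3, 17.0 and 18.3 RPM engaged. Cdkn1b, the cell cycle inhibitor p27, read 20.3 and 17.8 RPM and then 16.2, 15.2 and 16.7 RPM unengaged, and 28.5 and 23.4 RPM and then 21.2, 17.8 and 19.9 RPM engaged. Neither gene's groups overlapped, and both stood far lower at 1000 ng/ml than unengaged at dose 0, where their means were 176 ± 3.8 and 213 ± 0.69 RPM.

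The 24 interferon response genes had a median of -0.15, none called and 10 lower and 0 higher at an unadjusted p under 0.05, and 6 of them lay lower without overlap in both states, beside 6.08% and 2.79% of all genes. In unengaged cells alone their median, -0.15, was near that of all genes, -0.14, while in engaged cells it was -0.16 beside 0.041. Gbp2, an interferon-induced guanylate binding protein, read 146 and 122 RPM and then 101, 93.2 and 109 RPM unengaged and 123 and 107 RPM and then 105, 80.4 and 99.2 RPM engaged. The transcription factor gene Stat2 differed by -0.40 and Gbp5 by -0.39. Gbp4 had the largest value of the list, -2.49 (limma adjusted p = 0.271), but its 1000 ng/ml libraries were far apart, at 66.9 and 18.1 RPM unengaged and 51.9 and 10.3 RPM engaged. At 10000 ng/ml it read 6.23, 3.95 and 2.70 RPM and 5.43, 2.01 and 7.54 RPM.

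The other lists lay between these medians. The 28 ribosome biogenesis genes had a median of 0.093 (3 higher, 0 lower at an unadjusted p under 0.05), and the 18 immediate early factors one of 0.035 (1 and 0). The 21 genes of the receptor complex and its proximal kinases stood at -0.12 (0 and 6), the 21 effector and lineage factors at -0.14 (0 and 4) and the 24 cholesterol and fatty acid synthesis genes at -0.10 (0 and 3). Beside these counts, 1.73% of all genes were higher and 6.08% lower at that p, and the median of all genes was -0.040. No member of any list was called in the step. With edgeR and TMM factors, where the median of all genes was 0.0043, the cytokine and chemokine medians were 0.26 and 0.31 and the resting and interferon medians -0.17 and -0.099.

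**Figure D2:**
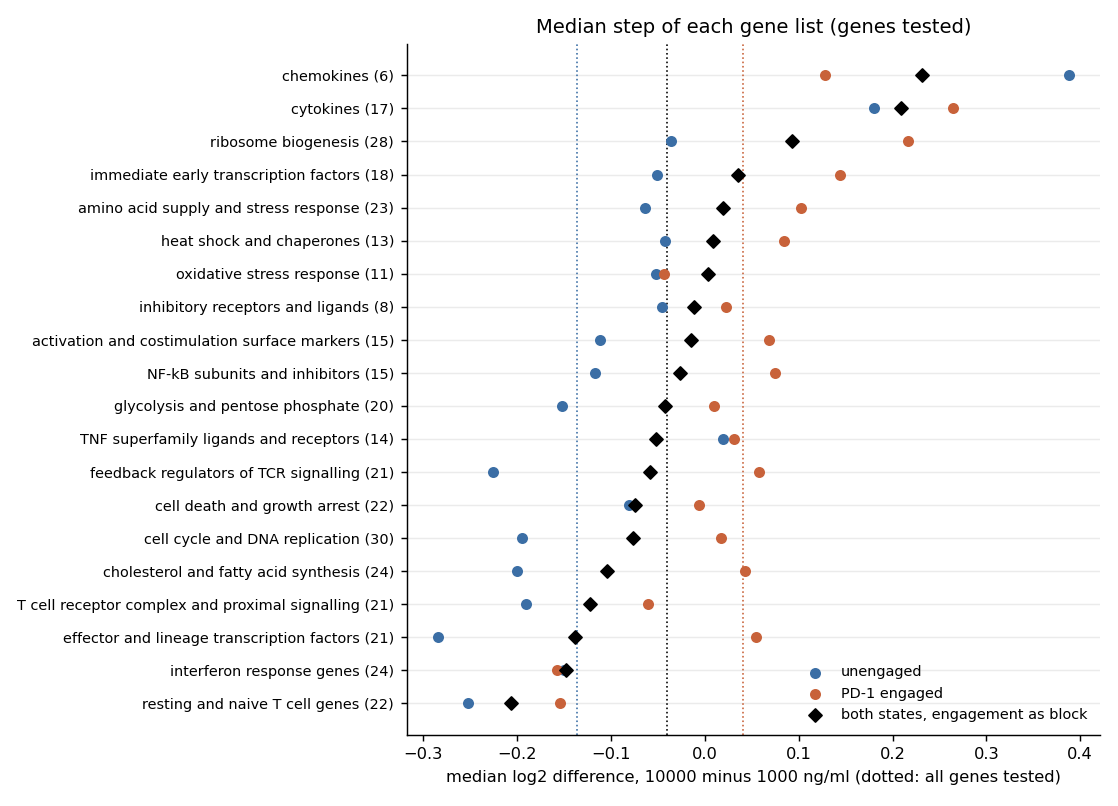
Median log2 difference between 10000 and 1000 ng/ml for the 20 pathway lists, with genes tested in brackets, in unengaged cells (blue), engaged cells (orange) and with engagement as block (black). Dotted lines mark the medians of all genes tested. Chemokines and cytokines lie to the right at 0.23 and 0.21, and resting and naive T cell genes to the left at -0.21.

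The 8 genes named in any case did not pass either, and the 95% interval of each lay inside a 2-fold change. Il2, the T cell growth factor, read 50.2 and 73.0 RPM at 1000 and 72.1, 94.1 and 71.6 RPM at 10000 ng/ml unengaged, overlapping, and 36.1 and 41.7 RPM and then 43.4, 55.3 and 45.2 RPM engaged, not overlapping. Its difference was 0.33 (95% interval 0.064 to 0.60, limma adjusted p = 0.56). Ifng, the type 1 helper cytokine, read 46.1 and 62.7 RPM and then 62.6, 75.7 and 65.6 RPM unengaged and 11.2 and 14.7 RPM and then 19.7, 20.5 and 13.1 RPM engaged, with overlap in both states (0.37, interval 0.065 to 0.67). Both cytokines were thus on the higher side without passing the test.

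Of the transcription factors, Egr2 differed by -0.00068 (interval -0.16 to 0.16), Nr4a1 by -0.11 (-0.31 to 0.088) and Myc, a driver of growth, by 0.16 (-0.045 to 0.36). Egr2 read 248 and 262 RPM and then 218, 242 and 231 RPM unengaged and 152 and 157 RPM and then 187, 169.8 and 158 RPM engaged, lower in one state and higher in the other without overlap. The early activation marker Cd69 differed by -0.12 (-0.27 to 0.036), and Pdcd1, which encodes PD-1, by -0.0066 (-0.19 to 0.18). Cd274, the gene of the PD-1 ligand PD-L1, differed by 0.027 (-0.093 to 0.15), from 119.9 ± 0.89 to 120.3 ± 7.9 RPM unengaged and 94.2 ± 2.7 to 97.7 ± 1.6 RPM engaged.

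To ask whether early response genes went on in their first direction, genes were sorted by the step from 0 to 100 ng/ml, whose 8 libraries are not used in the saturation step. That response called 1971 genes higher (19.4%) and 1033 lower (10.1%) of 10178 with limma, of which 1968 and 1007 were also tested in the saturation step. The early lower genes had a median saturation difference of -0.14. At an unadjusted p under 0.05, 208 of them were lower and 0 higher, and 95 lay lower and 0 higher without overlap in both states, beside 6.08% and 2.79% of all genes on the lower side. The 1968 early higher genes had a median of 0.018, with 78 higher and 38 lower at that p and 31 above and 13 below without overlap. For the 7190 other genes the median was -0.047, with 98 higher and 372 lower. Of all genes 1.73% were higher and 6.08% lower at that p, and 0.748% lay above and 2.79% below without overlap in both states.

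Of the early higher genes, 119 were at least 2-fold higher at 100 than at 0 ng/ml. Their mean log2(RPM + 1) was 5.803 and 5.955 in the unengaged libraries at 1000 ng/ml and 5.691, 5.796 and 5.712 at 10000. In engaged libraries it was 5.20 and 5.32, and then 5.53, 5.53 and 5.41. The unengaged groups nearly met, with the 10000 ng/ml libraries on the lower side. The engaged groups lay apart with 10000 ng/ml on the higher side. The median step of these genes was -0.11 unengaged, beside -0.14 for all genes, and 0.215 engaged, beside 0.041. By this median the unengaged decline was no larger than that of all genes. At 10000 ng/ml all 3 engaged libraries still lay below the 3 unengaged ones.

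Of these 119 genes, 10 lay higher at 10000 ng/ml without overlap in both states, beside 0.748% of all genes: Ccl1, Ccl3, Crabp2, Il4, Nop16, Rgs16, Spry1, Tnf, Angptl2 (an angiopoietin-like secreted protein) and Sema7a (a membrane-bound semaphorin). The last 2 differed by 0.33 and 0.21 on the log2 scale. Lower in both states lay 3, a share near the 2.79% of all genes: Eno3, Ephx1 (microsomal epoxide hydrolase) and the RIKEN gene 2700038G22Rik, by -0.35, -0.33 and -0.088. The 18 genes at least 2-fold lower in the early response had a median of -0.21. Without overlap in both states 2 were lower and 0 higher, beside 2.79% and 0.748% of all genes.

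**Figure D3:**
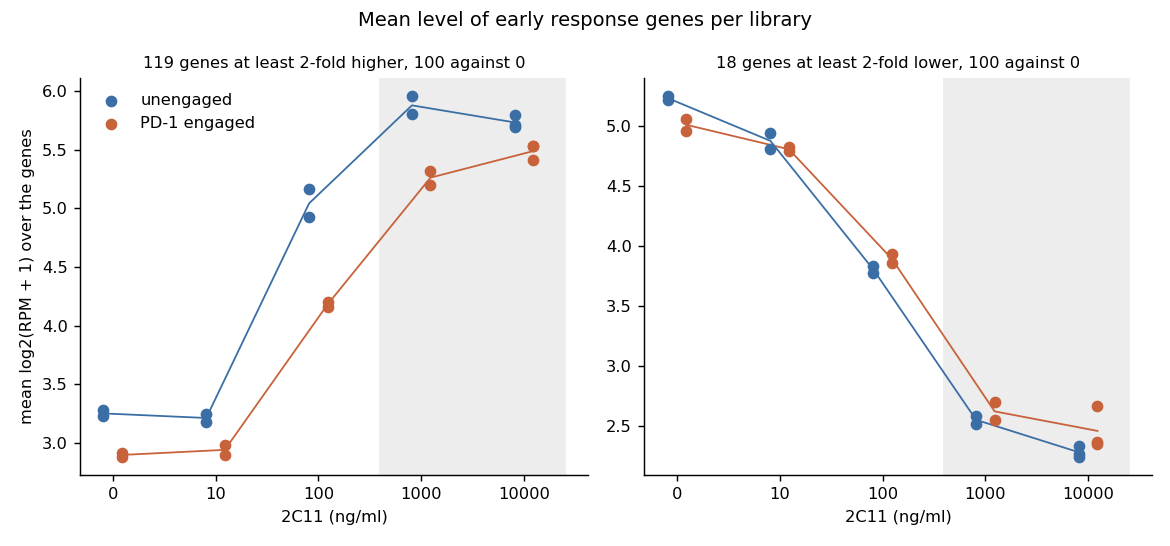
Mean log2(RPM + 1) per library over the 119 genes at least 2-fold higher (left) and the 18 at least 2-fold lower (right) at 100 than at 0 ng/ml, by dose of 2C11, with lines through group means. Between 1000 and 10000 ng/ml (grey) the engaged libraries of the left panel go from 5.20 and 5.32 to between 5.41 and 5.53. The unengaged ones go from 5.80 and 5.96 to between 5.69 and 5.80. Over all genes the median step was -0.14 unengaged and 0.041 engaged.

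The step was then fitted with 1 mean per group, which gives it in each state and tests the difference between states. In unengaged cells 839 genes were called (8.25%), 55 higher (0.541%) and 784 lower (7.71%). In engaged cells 294 were called (2.89%), 273 higher (2.69%) and 21 lower (0.207%). Of 173 genes called in both states, 4 had the same direction and 169 the opposite one. The 4 were Ccl1 and Csf2, which rose, and Dusp10 and Cnn2, which fell, with adjusted p in unengaged and engaged cells of 0.0078 and 0.0404, 0.0155 and 0.042, 0.0119 and 0.0287, and 0.0466 and 0.0422 (limma). With edgeR and TMM factors the engaged calls of these 4 genes were lost, at adjusted p of 0.11 for Ccl1, 0.0675 for Csf2 and 0.0521 for both Dusp10 and Cnn2, and so was the unengaged call of Cnn2 (0.231).

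The within-state counts depend on scaling, on the tool and on single libraries. Over all genes the median step was -0.14 in unengaged and 0.041 in engaged cells with RPM, and -0.0027 and -0.00032 with TMM factors. On that scale edgeR called 354 genes higher and 346 lower in unengaged cells, and 1 and 0 in engaged cells. DESeq2, with size factors that put the engaged median at -0.0058, called 482 and 344 in unengaged cells and 333 and 88 in engaged cells, so the engaged count also differs between tools at a like scaling. With limma, without unengaged 1000 ng/ml replicate 1 no gene was called in unengaged cells, and 1 higher and 1 lower in engaged cells. Without engaged 10000 ng/ml replicate 1 the counts were 111 higher and 1171 lower unengaged, and 858 higher and 195 lower engaged.

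The difference between states was called for 1432 genes (14.1%), with the step more positive in engaged cells for 1309 (12.9%) and more negative for 123 (1.21%). Of the 1432, 1299 were lower in unengaged and higher in engaged cells by sign. Leaving out single libraries gave 706 to 1438 positive and 42 to 210 negative calls, the lowest without unengaged 1000 ng/ml replicate 2 and replicate 1, respectively, and the highest without engaged 10000 ng/ml replicate 1. edgeR with TMM factors called 685 and 452, and DESeq2 692 and 501, so the split between the directions depends on the scaling. The median difference over all genes was 0.17 with RPM and -0.0087 with TMM factors.

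The 5 genes with the lowest p were Stub1, Tram1, Gltp, Atp6v0a2 and Ccnl2, which held their calls under all 21 alternatives run. Tram1, a component of protein translocation into the endoplasmic reticulum (chromosome 1, 13579900 to 13579957, minus strand), read 221 and 218 RPM at 1000 and 108, 103 and 103 RPM at 10000 ng/ml unengaged. Engaged it read 94.5 and 98.6 RPM and then 131, 190.3 and 177 RPM, a difference between states of 1.82 (limma adjusted p = 0.000576). Stub1, a ubiquitin ligase that works with chaperones, read 105 and 100.0 RPM and then 60.4, 59.2 and 50.6 RPM unengaged and 60.3 and 58.9 RPM and then 86.0, 100.5 and 96.8 RPM engaged. In both genes the unengaged libraries were lower and the engaged ones higher at 10000 ng/ml, and the unengaged level at 10000 lay near the engaged level at 1000.

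The other 3 had the same form. Atp6v0a2, a subunit of the vacuolar proton pump, went from 68.4 ± 1.8 to 30.9 ± 5.9 RPM unengaged and from 30.6 ± 4.1 to 55.2 ± 0.51 RPM engaged. The glycolipid transfer protein gene Gltp differed between states by 1.31 and Ccnl2, a cyclin of RNA processing, by 1.12. Of the genes called with the opposite sign, 99 were in the shortest of the length bins described below. The summed level of ribosomal protein genes had that form too. It read 56120 and 58330 RPM and then 63830, 61600 and 66820 RPM unengaged. Engaged it read 63700 and 65380 RPM and then 60670, 58820 and 57090 RPM. Nuclear genes of mitochondrial proteins are given as examples, picked after their values were seen, and were not tested as a group. Uqcr10, a subunit of complex III, read 283 and 305 RPM and then 410.2, 404 and 480.5 RPM unengaged and 402 and 486 RPM and then 375, 327 and 331 RPM engaged (-0.91, adjusted p = 0.00198, limma). Atp5e, of the ATP synthase, differed by -0.69 and the mitochondrial import gene Timm8b by -0.75.

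**Figure D4:**
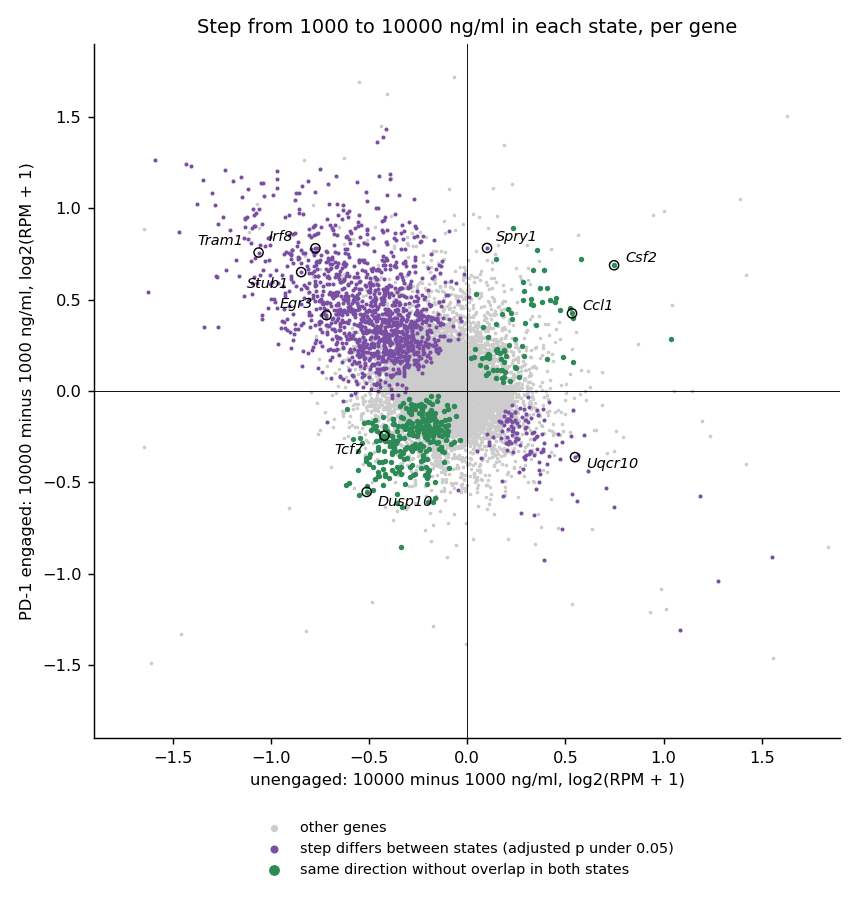
Step from 1000 to 10000 ng/ml per gene, unengaged on the x axis and engaged on the y axis (log2 difference of RPM + 1), for the 10165 genes tested, 12 of which lie outside the axes. Purple marks the 1432 genes whose step differed between states, most of them lower in unengaged and higher in engaged cells. Green marks genes on the same side without overlap in both states, with Ccl1 and Csf2 at the upper right and Dusp10 and Tcf7 at the lower left.

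Early response genes were found among them. Of the 119 genes at least 2-fold higher in the early response, 27 were called, all more positive in engaged cells, beside 12.9% of all genes. Of the 27, 20 were lower unengaged and higher engaged without overlap, a pattern that 13.1% of all genes showed. Picking genes by a positive difference in the same libraries favours that pattern. By sign alone, 1299 of all 1432 called genes had it, so the 20 say nothing particular to early response genes. The zinc finger factor Egr3 read 101 and 106 RPM at 1000 and 59.5, 64.5 and 63.8 RPM at 10000 ng/ml unengaged, and 55.1 and 58.6 RPM and then 71.2, 84.4 and 73.4 RPM engaged. It turned back in unengaged cells (adjusted p = 0.00257) and rose in engaged ones (0.0348), a difference of 1.13 (limma adjusted p = 0.000778). With edgeR the unengaged fall was still called (0.01) and the engaged rise was not (0.0675). Irf8, an interferon regulatory factor, read 341 and 413 RPM and then 232, 248 and 183 RPM unengaged, and 194 and 203 RPM and then 328, 398 and 307 RPM engaged (1.55, adjusted p = 0.000793, limma). Both held their calls in 21 of 21 alternatives, and at 10000 ng/ml the engaged libraries read above the unengaged ones.

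Other list members with a called difference included Spry1 (above), the effector factor Irf4 (0.66), the calcium-dependent factor Nfatc1 (0.64), the nuclear receptor Nr4a3 (0.42), the phosphatase Dusp5 (0.87), the RAS inhibitor Spred1 (0.82), the chaperone Hsph1 (0.81) and the sulfiredoxin Srxn1 (1.20). Nfatc1, for example, read 186 and 169 RPM and then 111, 136 and 121 RPM unengaged and 128 and 127 RPM and then 155, 138 and 119 RPM engaged, so that the engaged groups overlapped. By list, beside 12.9% of all genes, the difference was called as positive for 6 of 21 feedback regulators of TCR signalling, 6 of 21 effector and lineage factors, 3 of 11 oxidative stress genes and 3 of 15 NF-kB subunits and inhibitors. The median difference of these lists, in that order, was 0.31, 0.35, -0.0175 and 0.19, beside 0.17 for all genes. With the length and GC trend removed it was 0.00061, 0.016, -0.10 and -0.18, beside -0.07. Counts nearer that share were 4 of 24 lipid synthesis genes, 3 of 18 immediate early factors, 2 of 13 chaperones, 4 of 30 cell cycle genes and 3 of 28 ribosome biogenesis genes. It was called for 2 of 22 resting genes, 2 of 22 cell death genes, 2 of 23 amino acid supply genes, 1 of 21 receptor complex genes and 1 of 17 cytokine genes (Tgfb1, 0.98). None was called among 24 interferon response genes, 20 of glycolysis, 15 activation markers, 14 of the TNF family, 8 inhibitory receptors and 6 chemokines (limma). No list member was called as more negative.

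The difference between states moved with transcript length. Genes were split into 5 bins of nearly equal size by the spliced length of their longest transcript. From the shortest to the longest bin, the median step went from 0.032 to -0.26 in unengaged cells and from -0.023 to 0.10 in engaged cells, and the median difference from -0.053 to 0.35. Of the 1599 genes in the longest bin, 452 were called as more positive in engaged cells and 5 as more negative. In the shortest bin, of 1600 genes, these counts were 56 and 99.

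Single libraries showed the same split. The median level of the longest bin minus that of the shortest, each gene centred on its mean over all 22 libraries, was 0.093 and 0.070 in the unengaged libraries at 1000 ng/ml and -0.29, -0.20 and -0.27 at 10000. In engaged libraries it was -0.31 and -0.29 at 1000, and -0.18, -0.12 and -0.18 at 10000. It also differed between the states at dose 0, with 0.265 and 0.334 unengaged against 0.0115 and -0.0411 engaged.

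When a smooth trend of length and GC content was removed from each library, the difference was called for 374 genes as positive and 209 as negative, and 433 genes kept their call and sign. The within-state steps then called 78 genes higher and 76 lower in unengaged cells, and 1 and 1 in engaged cells. Of the 27 early response genes, 8 were still called, Egr3 (adjusted p = 0.0061 with limma) and Irf8 (0.0045) among them, and 1 had no length. This fit was chosen after seeing the data, and the part of transcript length in the result was not tested beyond it.

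**Figure D5:**
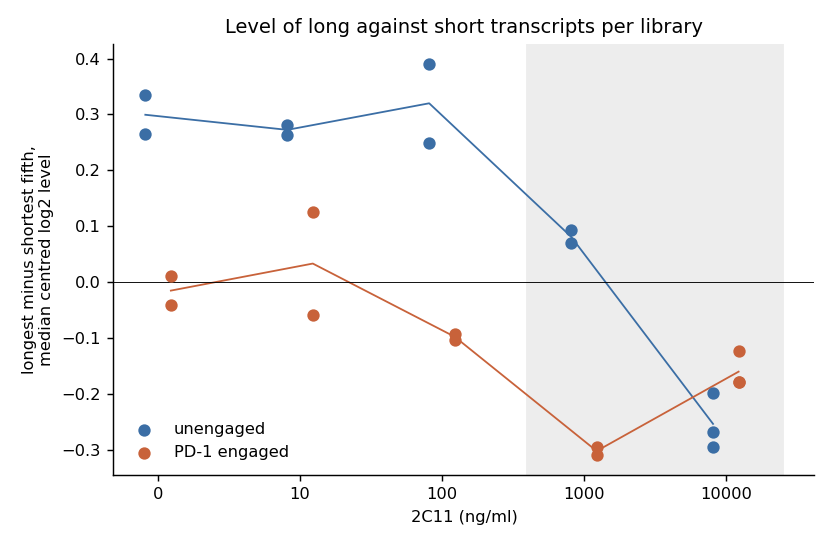
Median centred log2 level of the longest of 5 transcript length bins minus that of the shortest, 1 point per library, by dose of 2C11, with lines through group means. At 1000 ng/ml the unengaged libraries read 0.093 and 0.070 and the engaged ones -0.31 and -0.29, while at 10000 ng/ml the unengaged libraries read -0.29 to -0.20 and the engaged ones -0.18 to -0.12.

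Start clusters with no gene symbol were tested apart. None of 3337 (0%) passed in the step with limma, 225 (6.74%) had an unadjusted p under 0.05, and edgeR and DESeq2 each called 1. The difference between states was called for 1 cluster (0.0300%), on mm9 chromosome 7 from 105638499 to 105638537, plus strand, as deposited. It read 15.3 and 17.3 RPM at 1000 and 8.62, 7.94 and 9.16 RPM at 10000 ng/ml unengaged, and 8.95 and 7.52 RPM and then 13.1, 15.2 and 13.6 RPM engaged (difference 1.55, limma adjusted p = 0.0426). The gene it belongs to, if any, is not given in the file.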

How the data were processed

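The 22 CD4 CAGE libraries come as 1 table of start clusters with their RPM levels (tags scaled to the library's total), as deposited by the authors. The submitters' processing notes name mm9 as the build, and BWA 0.7.12 and HISAT2 2.0.5 among the tools. The sources used here do not say how clusters were made. Low RPM values were whole multiples of 1 tag's worth in every library (100% within 0.1 tag), so tags were recovered: 5.97 to 22.8 M a library in the 10 libraries compared, of which the clusters hold 83.3 to 86.3%. No columns were left unmapped and no pair of libraries was identical.

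RPM was summed per gene over the 13258 clusters with a single symbol (10219 genes). The 3643 clusters with no symbol were tested apart, and the 371 with several symbols were not used. Among the 10219 genes, 13 symbols had been turned into dates and were kept in that form. Genes that reached 1 RPM in 2 or more of the fitted libraries were tested on log2(RPM + 1), where fold changes of low genes are understated, with limma 3.58.1 (trend, 2-sided, Benjamini-Hochberg, threshold 0.05) in R 4.3.3 and engagement as an additive block (7 residual degrees of freedom). A fit with 1 mean per group (6) gave each state's step and the difference. edgeR 4.0.16 (quasi-likelihood) and DESeq2 1.42.0 on the recovered tags were alternatives. Scripts were tested on simulated data. Whether the labels' replicate numbers pair cultures is not stated, so the main fits did not use them.

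The rule for named genes took the 12 called genes with the largest difference in each direction, up to 3 called members per list, 8 set genes, and the 5 called genes with the lowest p for the difference; genes outside it are said to be chosen after their values were seen, and list examples in the report are too. The comparison, lists and rules were chosen with earlier results of these data known. Intervals are 95% limma intervals. Spliced length and GC content came from the longest GENCODE M21 transcript of each symbol, matched for 10056 of 10219 genes, some through RefSeq synonyms. Promoter sequences came from RefSeq GRCm38.p6, and mm9 positions are as deposited.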

Additional observations from a re-analysis of the deposited data

Results flagged for a closer look

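The step from 1000 to 10000 ng/ml differed between engaged and unengaged cells for many genes, which is why they are listed here. It was more positive with engagement for 1309 genes and more negative for 123 by limma. Because the counts of the 2 directions change with scaling, the single values below are better read beside the median difference of all genes, 0.17.

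The 5 genes with the lowest p differed by 1.497 (Stub1), 1.82 (Tram1), 1.31 (Gltp), 1.98 (Atp6v0a2) and 1.12 (Ccnl2) on the log2 scale, each with an adjusted p of 0.000576 by limma. Early response factors followed, Irf8 at 1.55 (adjusted p = 0.000793, limma) and Egr3 at 1.13 (0.000778). The feedback regulators Spry1, Dusp5 and Spred1 differed by 0.68, 0.87 and 0.82. Irf4, Nfatc1 and Nr4a3 differed by 0.66, 0.64 and 0.42, the chaperone Hsph1 by 0.81 and the oxidative stress gene Srxn1 by 1.195. Of these 15 genes 7 were called in all 21 alternatives (Stub1, Tram1, Gltp, Atp6v0a2, Ccnl2, Egr3 and Irf8). The fewest calls were those of Nr4a3 (8 of 21), Spred1 (13), Srxn1 (14), Nfatc1 (15) and Irf4 (16).

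A start cluster with no symbol, on mm9 chromosome 7 from 105638499 to 105638537, differed by 1.55. Over all genes the difference between states moved with transcript length, as the report gives it; the cluster has no transcript length.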

How the results depend on the processing

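The labels' replicate numbers gave same-number correlations from -0.000111 to 0.249. With the numbers as a replicate block no gene was called in the step, 526 rose and 40 fell in engaged cells, and the difference was called for 1644 and 155 genes. DESeq2 called 23 genes higher and 20 lower in the step, a fit of all 22 libraries 4 and 42 (and 54 lower in engaged cells), and 1 mean per group 2 and 2. Quantile normalization gave 572 positive and 373 negative differences, 98 higher and 191 lower unengaged, 3 and 4 engaged, and 1614 lower in the early response. edgeR gave 685 and 452, 354 and 346, 1 and 0, and 1711. DESeq2 gave 692 and 501, 482 and 344, and 88 lower engaged. Both called 1 cluster with no symbol. Without both 10000 ng/ml libraries numbered 3 there were 52 negative differences, 14 higher and 330 lower unengaged, and 5 and 0 engaged. With the length and GC trend removed (chosen after seeing the data) there were 374 and 209 differences, 76 lower unengaged, 1 and 1 engaged, and 1665 lower in the early response. The cause of these shifts was not tested.

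Leaving out 1 library at a time gave 0 genes higher and 0 to 1 lower in the step (1 without unengaged 1000 ng/ml replicate 2), and 706 to 1438 positive and 42 to 210 negative differences. It gave 0 to 111 higher and 0 to 1171 lower unengaged, 1 to 858 higher and 0 to 195 lower engaged, 0 to 1 cluster (1 without engaged 10000 ng/ml replicate 3), and 1324 to 2534 higher and 691 to 1102 lower in the early response. The pseudocounts of 0.25 and 3 RPM, no filter and a mean of at least 5 RPM kept every count within 1.5 times.

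Of the single-gene values of the step, 651 kept side and direction, 33 passed the test and 20 changed sign. For the difference 272 kept their call, 42 lost it and 1 changed sign, Nr4a3 (-0.0093 with the trend removed). The sign changes in the step were those of Egr2 and Pdcd1, whose values are near 0. Pdcd1 was 0.0057 with quantile normalization, 0.046 with edgeR, 0.051 with DESeq2, 0.0023 with the replicate block and also without both libraries numbered 3, and 0.029 with the trend removed. Egr2 was 0.048 with edgeR, 0.050 with DESeq2, 0.026 with the block and without both libraries numbered 3, and 0.055 with the trend removed. With 1 library left out, Egr2 ran from -0.043 to 0.049 and Pdcd1 from -0.065 to 0.029.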

Other observations

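Of the 13 genes that differed by 1 or more in the step, none was called by limma, and several were far higher in 1 to 4 libraries than in the rest. Hist2h3c1, a histone H3 gene, read 5735 RPM in engaged 1000 ng/ml replicate 2 and 9.27 to 23.4 RPM in the other 9 libraries. Hist1h2ap, a histone H2A gene, read 2436 RPM in unengaged 10000 ng/ml replicate 2 and 1.53 to 3.91 RPM elsewhere. Oaz1, which encodes ornithine decarboxylase antizyme, read 436 and 1083 RPM in unengaged and engaged 1000 ng/ml replicate 2 and 14.4 to 17.9 RPM elsewhere. Gm14934 read 2761 RPM in unengaged 10000 ng/ml replicate 2, 1494 RPM in engaged 10000 ng/ml replicate 2 and 527 RPM in engaged 1000 ng/ml replicate 2, against 5.83 to 43.4 RPM in the others. Gm9840 read 227 to 354 RPM in 4 libraries and 0.08 to 0.53 RPM in the other 6. The guanylate binding protein gene Gbp8 read 67.1 RPM in unengaged 10000 ng/ml replicate 3 and 1.07 to 24.0 RPM in the others. Gm14295 read 37.7 and 13.1 RPM in the engaged and 5.46 and 0 RPM in the unengaged 1000 ng/ml libraries, and 0 to 0.1 RPM at 10000.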
